A study of Homo sapiens with 9 samples.

Results

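The MYC, MAX and MXD network is a family of transcription factors that compete for 1 partner and for 1 kind of DNA site. It was examined here through 10 genes: MYC, MAX, MXD1, MXI1 (also called MXD2), MXD3, MXD4, MNT, MGA, MLX and MLXIP. The genes were taken by symbol from a table of 36810 genes, and all 10 were among the 13657 genes with enough expression to be tested. The samples are 9 libraries of polyadenylated RNA from 143B cells, an osteosarcoma line of human origin in wide laboratory use. The control group, 3 libraries, was taken at 0 h. The other groups, 3 libraries each, were cells exposed to XD23, a compound known here only under that code, at 0.5 µM for 24 h or for 48 h. All groups share the same line and medium, with no genetic change named. No vehicle is named, and the groups hold no untreated cells later than 0 h, so the compound and the time in culture cannot be told apart in any comparison. Whether replicate libraries are separate cultures is not stated, so the p-values measure only the spread between these libraries.

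MAX is the shared partner of the network and has no activating part of its own. MYC paired with MAX binds the E-box, the letters CACGTG, and recruits histone acetyltransferases to genes for growth, ribosome building and the cell cycle. The MXD proteins and MNT pair with MAX on the same letters and bring the SIN3 corepressor with its histone deacetylases, and MXD proteins are known to rise as cells stop dividing and differentiate. MGA pairs with MAX inside PRC1.6, a Polycomb repressor complex. MLX forms a parallel branch: it pairs with MLXIP (MondoA), which moves to the nucleus when glucose phosphates accumulate and activates TXNIP and ARRDC4, and MLX can also pair with MXD1, MXD4 and MNT. MYC drives growth in many osteosarcomas and is a known target gene of β-catenin, whose activation the title of the series names.

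Levels are in FPKM, a fragment count corrected for the length of the gene and for sequencing depth, and the libraries held 18341542 to 22901830 fragments. VIM, SPARC and RUNX2, expected in a mesenchymal bone tumour line, were present in the control libraries at means of 304.1, 41.9 and 6.34 FPKM. SPARC and RUNX2 fell at 48 h, by 0.56 (adjusted p = 4.94e-05) and 0.50 (adjusted p = 0.000189) on the log2 scale, and VIM had a log2 fold change of 0.23 (adjusted p = 0.0935); the part of these marker changes in the results was not tested. The mature osteoblast genes COL1A1 and ALPL lay at 0.495 and 0.0786 FPKM. Of 6 measured markers of blood, vessel, epithelial, liver and muscle cells, EPCAM alone reached 1 FPKM (3.88 in the control group and 2.75 at 48 h, a fall with an adjusted p of 0.0186). The third 24 h library stood apart: genes with more than 8000 bases of exon (2459 genes) lay at a median of -0.15 (log2) from the control mean in it, against 0.012 and -0.0033 in the other 24 h libraries. The tests that use the 24 h libraries are given with and without it for the network genes, TXNIP and ARRDC4.

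After 48 h, 4 of the 10 genes rose (MXD4, MLX, MAX and MXI1), MYC fell, and 5 did not pass the test. The changes were small: MXD4 rose 1.61-fold, and the other 4 moved by 1.12-fold to 1.23-fold. Among all genes tested, 13.3% rose and 15.2% fell in this comparison, and the share of fallen members (1 of 10) is near that background. The median log2 fold change of the 10 genes was 0.09, beside -0.02 over all genes tested. These 10 genes were chosen with earlier results of these data known. Fold changes and errors in log2 units are on the scale of log2(FPKM + 1), where a change at a low level appears smaller than it is, and a gene was called at a Benjamini-Hochberg adjusted p under 0.05 from limma over all genes tested. In bulk RNA, fewer cells that hold a transcript and less of it per cell cannot be told apart.

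**Figure D1:**
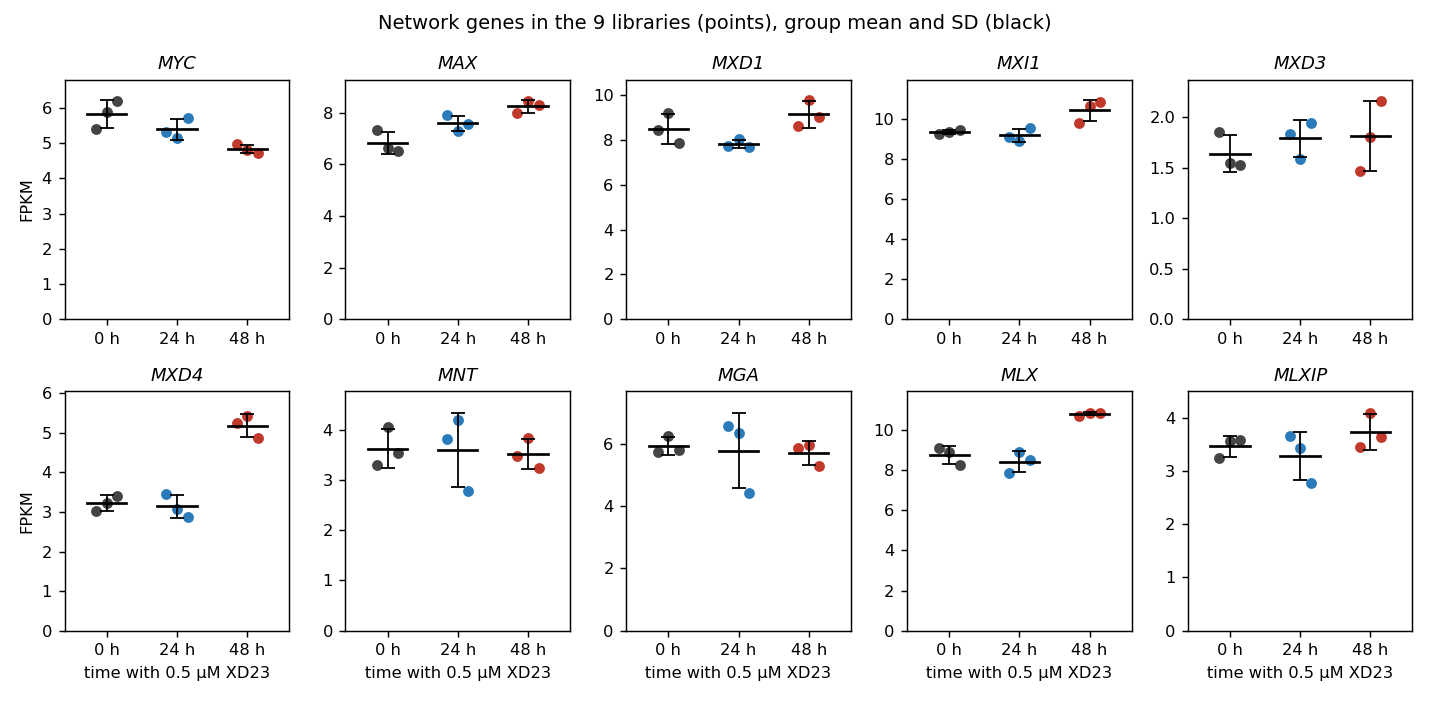
FPKM (vertical axis, from 0, with its own range in each panel) of the 10 network genes in each of the 9 libraries, by hours with 0.5 µM XD23. Points are libraries, the wide black line is the mean of 3 and the error bar is the SD. The 48 h points lie above all control points for MAX, MXI1, MXD4 and MLX and below them for MYC. The 48 h and control points overlap for the other 5 genes. Separation of this kind was not counted over all genes tested, so it has no background here. The limma shares (13.3% rose and 15.2% fell) count calls and do not serve as that background. RUVBL1 and RNF2, for example, were also separate from control at 48 h without being called.

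In the control libraries, MXI1 was the most abundant member per unit of gene length, at a mean of 9.35 FPKM, followed by MLX at 8.77 and MXD1 at 8.50. MAX followed at 6.83, then MGA at 5.94 and MYC at 5.83. MNT (3.62), MLXIP (3.46) and MXD4 (3.22) formed a low group, and MXD3 was lowest at 1.64 FPKM. The control values of MLX and MXD1, of MGA and MYC, of MNT and MLXIP, and of MLXIP and MXD4 overlapped, so those neighbours were not ordered beyond their spread. The paralogs that could stand in for MYC or MLXIP lay below 1 FPKM in every library, with MYCL low but detected. MYCN lay at a control mean of 0.0323 FPKM (1 to 5 fragments in any of the 9 libraries), MYCL at 0.586 FPKM (33 to 80 fragments) and MLXIPL, which encodes ChREBP, at 0.193 FPKM (5 to 21 fragments). MYC was therefore the only MYC paralog past the filter of 1 FPKM in 3 libraries, and MLXIP the only partner of its kind for MLX. The transcripts of each member other than MXD3 rested on 424 fragments or more in every library.

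MYC (ENSG00000136997, chromosome 8, 127735434 to 127741434, plus strand, build GRCh38) measured 5.41, 5.87 and 6.20 FPKM in the control libraries, 5.32, 5.14 and 5.72 at 24 h, and 4.97, 4.81 and 4.73 at 48 h. Every 48 h library was below every control and every 24 h library. The control and 24 h libraries overlapped. The mean went from 5.83 ± 0.394 (SD, n = 3) in the control group to 4.84 ± 0.123 at 48 h, 1.21-fold lower, with a log2 fold change of -0.22 ± 0.06 (SE; 95% interval -0.35 to -0.10; adjusted p = 0.0168). The call was close to the threshold: the adjusted p was 0.0529 without control replicate 2, 0.0621 without control replicate 3, 0.0538 without 48 h replicate 2 and 0.0547 without 48 h replicate 3. Gene length moved with the comparison, and the class of MYC depends on the length taken. GENCODE gives MYC 3001 bases of exon, in a class of 2000 to 4000 bases with a median log2 fold change of -0.06, but the smallest length that turns its FPKM into whole fragments is 4584 bases, in a class of 4000 to 8000 bases with a median of 0.00. The part of length in the fall of MYC was not tested.

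MAX (ENSG00000125952, chromosome 14, 65006174 to 65102695, minus strand), the obligate partner, moved the other way. It measured 7.34, 6.65 and 6.51 FPKM in the control libraries, 7.90, 7.32 and 7.57 at 24 h, and 7.98, 8.46 and 8.31 at 48 h. The 48 h values were above all the others, and 1 control library (7.34) lay inside the 24 h range. From 6.83 ± 0.442 FPKM (SD, n = 3) the mean rose to 8.25 ± 0.243, a log2 fold change of 0.24 ± 0.05 (SE; adjusted p = 0.0088), and the call held in each of 19 alternative analyses (adjusted p 0.00514 to 0.0376). At 24 h MAX alone among the 10 genes had an unadjusted p from limma under 0.05. Its log2 fold change there was 0.14 ± 0.05, with a limma adjusted p of 0.644.

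Among the antagonists that carry SIN3 to E-boxes, MXD4 changed most. MXD4 (ENSG00000123933, chromosome 4, 2247432 to 2262294, minus strand) encodes a repressor known from differentiating cells. Its promoter and that of MNT are shown because both hold the letters of the E-box. The part of these letters in the level of either transcript was not tested. The sequences are from RefSeq (build GRCh38.p14), run from 250 bases before to 50 after the transcript start, and are written in the direction of the gene, with CACGTG in capitals. MXD4 is chr4:2262060-2262359 on the minus strand, with the match 238 bases before the start, and MNT is chr17:2401011-2401310 on the minus strand, with the match 193 bases before the start.
MXD4: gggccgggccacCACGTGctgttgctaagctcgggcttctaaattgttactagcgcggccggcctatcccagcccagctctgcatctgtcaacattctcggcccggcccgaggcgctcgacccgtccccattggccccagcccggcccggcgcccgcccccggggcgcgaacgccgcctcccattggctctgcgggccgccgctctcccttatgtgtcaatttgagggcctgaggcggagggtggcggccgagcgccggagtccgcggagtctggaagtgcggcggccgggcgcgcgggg
MNT: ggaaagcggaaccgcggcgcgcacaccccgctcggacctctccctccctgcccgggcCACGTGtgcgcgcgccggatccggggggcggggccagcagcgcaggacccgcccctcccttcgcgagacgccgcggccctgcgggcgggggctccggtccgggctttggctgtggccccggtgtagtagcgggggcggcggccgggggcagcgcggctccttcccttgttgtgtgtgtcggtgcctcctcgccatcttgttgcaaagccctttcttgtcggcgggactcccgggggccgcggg
CACGTG, which reads the same on both strands, occurred in 7.26% of the 35116 promoters of this length that were searched, and for 8.77% of the 27305 genes they belong to. Of the 9 network genes searched, 3 held it (MXD4, MNT and MLX), in 3 of their 14 promoters. A match of letters is a description and does not show binding.

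MXD4 measured 3.02, 3.24 and 3.41 FPKM in the control libraries, 3.47, 3.08 and 2.88 at 24 h, and 5.24, 5.43 and 4.87 at 48 h. The control and 24 h libraries were interleaved, and every 48 h library stood well clear of them. The mean rose from 3.22 ± 0.197 (SD, n = 3) to 5.18 ± 0.288 FPKM, 1.61-fold, with a log2 fold change of 0.55 ± 0.07 (SE; adjusted p = 0.000649). The call held in each of the 18 alternatives that tested MXD4 (adjusted p 0.000151 to 0.00432). At 24 h the log2 fold change was -0.03 ± 0.07 (adjusted p = 0.929).

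MXI1 (ENSG00000119950, chromosome 10, 110207605 to 110287365, plus strand), the MXD member with the highest level, rose less. Its control libraries lay at 9.25, 9.36 and 9.44 FPKM, the 24 h libraries at 9.08, 8.91 and 9.54, and the 48 h libraries at 9.81, 10.6 and 10.8. The 48 h values did not overlap the others, but the gap below the lowest of them was narrow. The rise was 1.12-fold (log2 0.14 ± 0.05; adjusted p = 0.0473), and the call was lost in 10 of 19 alternatives, with adjusted p between 0.0575 and 0.143. Those 10 include leaving out any control library, 24 h replicate 1 or 2, and 48 h replicate 2 or 3.

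MXD1 (ENSG00000059728, chromosome 2, 69897688 to 69942945, plus strand), the founding member of the MXD group, gave 8.43, 9.21 and 7.87 FPKM in the control libraries, 7.74, 8.05 and 7.70 at 24 h, and 8.63, 9.80 and 9.01 at 48 h. One control library lay within the 48 h range, and all 3 of the 24 h libraries lay below it. The change from control at 48 h was 0.10 ± 0.06 (log2; 95% interval -0.04 to 0.24; adjusted p = 0.286). Against 24 h, the 48 h libraries were higher by 0.20 ± 0.06 (log2; adjusted p = 0.0368), a call lost in 8 of 19 alternatives. Those include leaving out control replicate 1, any 24 h library (adjusted p = 0.0686 without the third) and 48 h replicate 2 or 3, and the adjusted p over the 8 was 0.0533 to 0.128.

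MXD3 (ENSG00000213347, chromosome 5, 177301461 to 177312757, minus strand), which unlike its relatives is tied to dividing cells, gave 1.85, 1.54 and 1.52 FPKM in the control libraries, 1.83, 1.59 and 1.95 at 24 h, and 1.47, 1.81 and 2.16 at 48 h. The 3 groups overlapped throughout, on 144 to 226 fragments per library. The 48 h change was 0.09 ± 0.10 (log2; 95% interval -0.15 to 0.32; adjusted p = 0.577). Its value is uncertain, because 18.0% of its exon bases are shared with RAB24 on the same strand and 22.5% with the abundant PRELID1 on the other, and no strand-specific counting is stated.

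MNT (ENSG00000070444, chromosome 17, 2384060 to 2401118, minus strand), the antagonist expressed in dividing and resting cells alike, gave 3.30, 4.04 and 3.53 FPKM in the control libraries, 3.81, 4.20 and 2.77 at 24 h, and 3.47, 3.82 and 3.24 at 48 h. No group was separate from another. The 48 h change was -0.03 ± 0.12 (log2; 95% interval -0.30 to 0.23; adjusted p = 0.859), an interval that leaves room for a change as large as that of MYC in either direction. The lowest of the 9 values came from the third 24 h library. Without that library the 24 h change of MNT was 0.12 (log2; adjusted p = 0.721), against -0.02 (adjusted p = 0.977) with it.

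MGA (ENSG00000174197, chromosome 15, 41621224 to 41773081, plus strand), the scaffold of PRC1.6, gave 5.74, 6.26 and 5.81 FPKM in the control libraries, 6.58, 6.36 and 4.40 at 24 h, and 5.88, 5.96 and 5.28 at 48 h. The groups overlapped, and the third 24 h library was again lowest. With 17651 bases of exon, MGA belongs to the length class that was low in that library. The 48 h change was -0.05 ± 0.12 (log2; 95% interval -0.32 to 0.22; adjusted p = 0.788), and the 24 h change was 0.11 (adjusted p = 0.635) without that library against -0.05 (adjusted p = 0.936) with it.

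**Figure D2:**
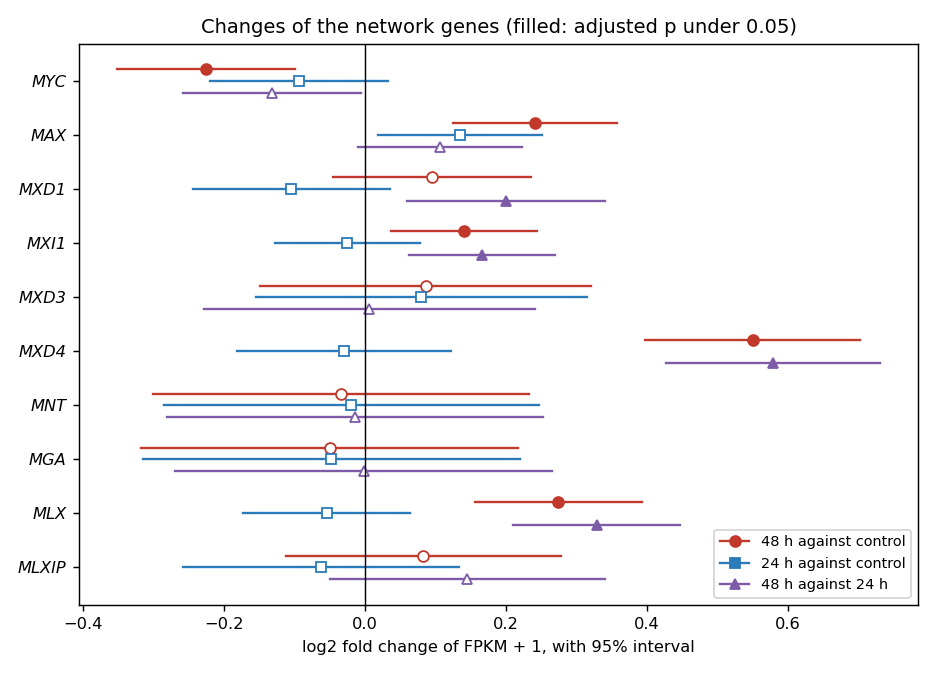
Log2 fold change of FPKM + 1 (horizontal axis) with its 95% interval for the 10 network genes, at 48 h against control (circles), 24 h against control (squares) and 48 h against 24 h (triangles). Filled symbols passed an adjusted p of 0.05. Every 24 h symbol is open, and MXD4 stands furthest right, at 0.55 and 0.58.

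The parallel branch showed a second well separated rise. MLX (ENSG00000108788, chromosome 17, 42567068 to 42573239, plus strand) gave 9.12, 8.93 and 8.28 FPKM in the control libraries, 7.84, 8.89 and 8.51 at 24 h, and 10.7, 10.9 and 10.9 at 48 h. The 48 h libraries lay close together and above all the rest. The mean rose 1.23-fold, from 8.77 ± 0.441 (SD, n = 3) to 10.8 ± 0.0804 FPKM (log2 0.27 ± 0.05; adjusted p = 0.00522), and the call held in each of 19 alternatives (adjusted p 0.00305 to 0.0224). MLX shares 18.1% of its exon bases with PSMC3IP on the other strand. PSMC3IP itself went from 4.12 FPKM in the control group to 2.79 at 48 h.

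MLXIP (ENSG00000175727, chromosome 12, 122078722 to 122147347, plus strand), the glucose-sensing partner of MLX, gave 3.24, 3.57 and 3.58 FPKM in the control libraries, 3.65, 3.43 and 2.78 at 24 h, and 3.45, 4.09 and 3.64 at 48 h. The 48 h and control values overlapped, and the third 24 h library was lowest of all 9. The 48 h change was 0.08 ± 0.09 (log2; 95% interval -0.11 to 0.28; adjusted p = 0.515). At 24 h the change was 0.03 (adjusted p = 0.947) without the third library and -0.06 (adjusted p = 0.881) with it. The MLXIP protein is regulated mainly by its place in the cell, which transcript levels do not record.

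MLX:MLXIP complexes act on TXNIP, whose product holds back glucose uptake, and on its relative ARRDC4. Their promoters and that of MLX are shown, because the complexes bind carbohydrate response elements, which are pairs of E-box-like letters 5 bases apart. The sequences are from RefSeq (GRCh38.p14), cut and written as above, and capitals mark CACGTG and the variants CACGAG and CACGCG on either strand (CGCGTG is CACGCG read from the other strand). MLX is chr17:42566850-42567149 on the plus strand, TXNIP is chr1:145996530-145996829 on the minus strand and ARRDC4 is chr15:97960453-97960752 on the plus strand.
MLX: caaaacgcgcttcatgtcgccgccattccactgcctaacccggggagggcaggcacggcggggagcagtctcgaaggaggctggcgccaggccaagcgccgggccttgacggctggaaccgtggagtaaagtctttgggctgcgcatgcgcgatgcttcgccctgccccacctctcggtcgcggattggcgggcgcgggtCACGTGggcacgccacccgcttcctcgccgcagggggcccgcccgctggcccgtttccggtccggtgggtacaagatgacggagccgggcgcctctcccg
TXNIP: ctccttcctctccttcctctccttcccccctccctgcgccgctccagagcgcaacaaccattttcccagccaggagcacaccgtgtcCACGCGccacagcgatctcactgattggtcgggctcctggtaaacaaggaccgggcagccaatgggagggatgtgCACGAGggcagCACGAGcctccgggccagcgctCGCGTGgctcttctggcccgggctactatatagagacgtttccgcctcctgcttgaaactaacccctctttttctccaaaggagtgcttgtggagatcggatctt
ARRDC4: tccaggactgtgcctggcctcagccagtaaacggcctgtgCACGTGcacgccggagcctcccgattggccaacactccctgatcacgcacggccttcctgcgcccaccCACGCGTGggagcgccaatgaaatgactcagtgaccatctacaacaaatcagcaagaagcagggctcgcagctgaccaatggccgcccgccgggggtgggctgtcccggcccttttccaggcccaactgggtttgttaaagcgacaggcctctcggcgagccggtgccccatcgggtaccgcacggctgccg
In TXNIP, 2 copies of CACGAG begin 88 and 77 bases before the start and lie 5 bases apart. ARRDC4 holds CACGTG 210 bases before its start and, as CACGCGTG, CACGCG overlapping on both strands, and MLX holds 1 CACGTG 50 bases before its start. CACGAG occurred in 6.78% and CACGCG in 11.4% of the 35116 promoters.

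TXNIP measured 19.5, 22.0 and 21.8 FPKM in the control libraries, 25.9, 24.6 and 25.3 at 24 h, and 44.0, 50.7 and 51.0 at 48 h. The 3 groups did not overlap, and the 24 h libraries lay just above the control libraries. The 48 h mean was 2.30-fold the control mean (48.6 ± 3.98 against 21.1 ± 1.39 FPKM, SD, n = 3), a log2 fold change of 1.16 ± 0.07 (adjusted p = 2.87e-05). At 24 h, with a log2 fold change of 0.25, the adjusted p was 0.487.

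ARRDC4 measured 1.301, 1.429 and 1.45 FPKM in the control libraries, 1.603, 1.524 and 1.696 at 24 h, and 2.542, 3.214 and 2.971 at 48 h. As with TXNIP, each later group lay wholly above the earlier one. The 48 h mean was 2.09-fold the control mean (log2 0.70 ± 0.08; adjusted p = 0.000373), while the 24 h log2 fold change of 0.12 had an adjusted p of 0.743.

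The wider list of MLX and MLXIP targets had 8 tested genes, of which 6 rose and 0 fell at 48 h. Their median log2 fold change was 0.56 beside -0.02 over all genes, with a background of 13.3% risen. This list was chosen with earlier results of these data known, so the excess is a description and not a test. PFKFB3, an activator of glycolysis, rose from 6.76 ± 0.193 (SD, n = 3) to 14.4 ± 0.457 FPKM (log2 0.99 ± 0.05; adjusted p = 1.38e-05). KLF10 (log2 0.66), the first enzyme of glucose use HK2 (0.46) and the citrate-cleaving enzyme ACLY (0.24) also rose, whereas FASN, the fatty acid synthase, had a log2 fold change of 0.29 with an adjusted p of 0.193 and RGS16 one of -0.11 (adjusted p = 0.581). PFKFB3, HK2 and TXNIP are also known to answer to hypoxia and other signals, so the list is not specific to MLX. Without the third 24 h library 7 of the 8 were called, while the calls over all genes also went from 3891 to 5132.

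The balance of the network in transcripts was described as a ratio, with no test. The summed FPKM of the 5 SIN3-recruiting antagonists (MXD1, MXI1, MXD3, MXD4 and MNT) divided by that of MYC was 4.78, 4.67 and 4.16 in the control libraries, 4.87, 5.02 and 4.34 at 24 h, and 5.76, 6.54 and 6.37 at 48 h. The 48 h ratios were above all the others. The control and 24 h ratios overlapped through the third 24 h library alone, without which the 24 h mean was 4.95 in place of 4.75. The mean went from 4.53 ± 0.328 (SD, n = 3) to 6.22 ± 0.412. Both parts of the ratio contributed: the summed antagonists went from 26.3 ± 0.91 to 30.1 ± 1.43 FPKM while MYC went from 5.83 to 4.84. The 5 antagonists did not rise as a group. MXD4 went from 3.22 to 5.18 FPKM, MXI1 from 9.35 to 10.4 and MXD1 from 8.50 to 9.15. MXD3 went from 1.64 to 1.81 and MNT from 3.62 to 3.51, and neither these nor MXD1 were called. The ratio of MAX to MYC went from 1.18 ± 0.158 through 1.41 ± 0.0814 at 24 h (1.45 without the third library) to 1.71 ± 0.0878 at 48 h, so in these units MAX exceeded MYC in every group. These are ratios of transcripts per length, and protein levels were not measured.

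**Figure D3:**
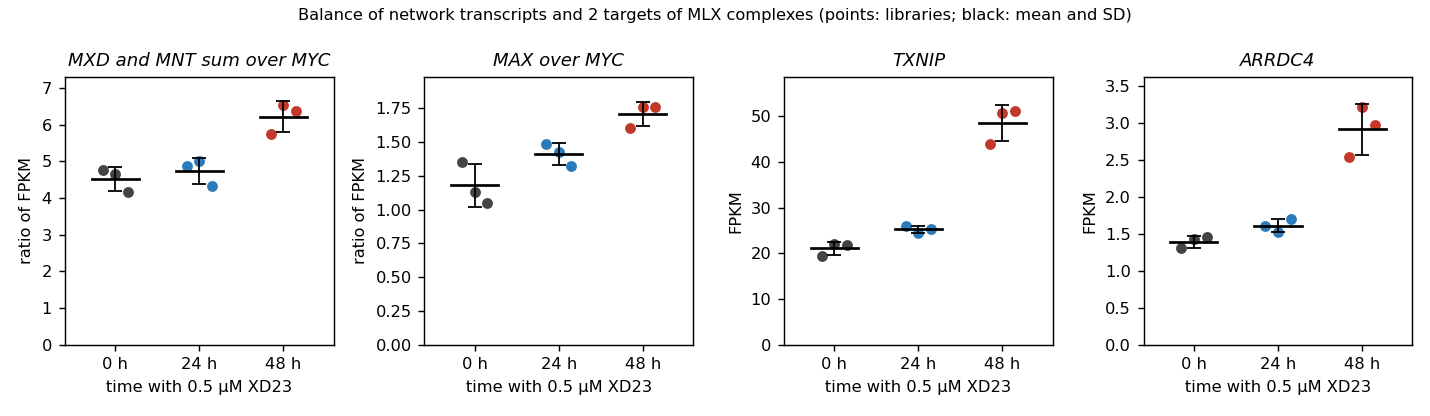
Ratios of FPKM (summed MXD1, MXI1, MXD3, MXD4 and MNT over MYC, and MAX over MYC) and FPKM of TXNIP and ARRDC4 in the 9 libraries, by hours with 0.5 µM XD23. Points are libraries, wide lines means of 3 and error bars SD. All 3 of the 48 h points lie above all control points in each panel, and TXNIP goes from a mean of 21.1 to 48.6 FPKM.

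At 24 h no change of the network from control was established, which does not show that it was unchanged. None of the 10 genes was called by limma (0 of 10, with 1 at an unadjusted p under 0.05, and no other tool was run), against a background of 0.00732% of genes called, which is 1 gene in 13657. None was called in any of the 19 alternatives. The 95% intervals at 24 h reached from -0.32 to 0.31 (log2) over the 10 genes. Changes of the size seen later in MYC or MAX could thus not be told from none in the less precise members. For MAX itself the 24 h interval was 0.0186 to 0.2515, which holds its 48 h change of 0.2413. For MYC it was -0.2198 to 0.0326, with a lower end close to the 48 h change of -0.2249. Between 24 h and 48 h, MXD4 (log2 0.58 ± 0.07; adjusted p = 0.000394), MLX (0.33 ± 0.05; adjusted p = 0.00182), MXI1 (0.17 ± 0.05; adjusted p = 0.023) and MXD1 (0.20 ± 0.06; adjusted p = 0.0368) rose, where 16.0% of all genes rose and 16.3% fell. The call of MXI1 rested on single libraries: omitting 24 h replicate 1 or 2 or 48 h replicate 2 or 3, or fitting these groups alone, ended it (adjusted p 0.0574 to 0.0799). MYC and MAX were not called between these times: MYC had a log2 difference of -0.13 ± 0.06 (adjusted p = 0.103) and MAX one of 0.11 ± 0.05 (adjusted p = 0.147). MYC and MAX thus lay between their control and 48 h means at 24 h, while the 24 h means of MXI1, MXD1, MXD4 and MLX lay slightly below the control means, that of MXD4 only with the third 24 h library included. The comparisons at 24 h and 48 h share their control libraries.

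Leaving out the third 24 h library changed 1 of these calls between 24 h and 48 h, that of MXD1. Without it the log2 difference between those times was 0.53 for MXD4 (adjusted p = 0.000798), 0.34 for MLX (adjusted p = 0.00331) and 0.19 for MXI1 (adjusted p = 0.0135), all still called. It was -0.09 for MYC (adjusted p = 0.221) and 0.10 for MAX (adjusted p = 0.194), and, for the members whose lowest value came from that library, -0.15 for MNT (adjusted p = 0.205), -0.16 for MGA (adjusted p = 0.0703) and 0.06 for MLXIP (adjusted p = 0.563). With it, these were -0.01 for MNT, -0.002 for MGA and 0.15 for MLXIP (adjusted p = 0.94, 0.992 and 0.231). MXD3 had a difference of 0.05 (adjusted p = 0.787) without it and 0.01 (adjusted p = 0.97) with it. Against control, the 24 h changes without it were -0.13 for MYC, 0.14 for MAX, -0.05 for MXI1, -0.09 for MXD1, 0.04 for MXD3, 0.02 for MXD4 and -0.06 for MLX (adjusted p 0.543 to 0.965), beside -0.09, 0.14, -0.02, -0.10, 0.08, -0.03 and -0.05 with it. For TXNIP and ARRDC4 the 24 h changes were 0.25 (adjusted p = 0.422) and 0.10 (adjusted p = 0.768) without it.

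Genes through which the network acts or is regulated were read from lists, with no test over a list. Every list was chosen with earlier results of these data known, so shares set beside the background only describe the lists. Of 14 MYC coactivators, 0 rose and 3 fell at 48 h: ACTL6A (log2 -0.27), RUVBL2 (-0.27), both subunits of chromatin remodelling and acetyltransferase complexes, and WDR5 (-0.14), which anchors MYC on chromatin. With 15.2% of all genes fallen and 13.3% risen, that share of fallen genes is close to the background. Of 13 subunits of the SIN3 complex, the histone-binding proteins RBBP7 (-0.21) and RBBP4 (-0.18) fell and ARID4A (0.21) rose, and SIN3A and SIN3B, the scaffolds themselves, had log2 fold changes of -0.01 and 0.05 with adjusted p of 0.92 and 0.654. These counts, 2 fallen and 1 risen, are also near the background. Of 10 partners of MGA in PRC1.6, PCGF6 (-0.27), the subunit that defines the complex, TFDP1 (-0.23), CBX1 (-0.22) and CBX3 (-0.20) fell and RYBP (0.24) rose, while MGA itself did not pass the test. That is 4 of 10 fallen beside 15.2% of all genes, and 1 of 10 risen beside 13.3%. These shares are not matched for gene length. Among 2000 to 4000 bases of exon, 6 of 6 coactivators, 3 of 3 partners of MGA and 1983 of 3222 tested genes were lower, called or not. From 4000 to 8000 bases, 0 of 3 coactivators, 2 of 5 partners and 2444 of 4896 tested genes were lower. The part of length in these falls was not tested.

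Among 17 genes that control the stability of the MYC protein, 0 rose and 3 fell, a share of fallen genes near the background of 15.2%. SKP2, a ubiquitin ligase subunit for MYC and for the cell cycle inhibitor p27, went from 6.87 ± 0.346 (SD, n = 3) to 4.14 ± 0.178 FPKM (log2 -0.61 ± 0.05; adjusted p = 9.47e-05). SET, an inhibitor of the phosphatase PP2A, fell by 0.18 and AURKA, a kinase, by 0.16 on the log2 scale. FBXW7, the main ligase of MYC, had a log2 fold change of 0.06 (adjusted p = 0.584). Of 12 regulators of the MYC transcript, ZFP36 (0.41) and ZFP36L1 (0.16), which promote decay of AU-rich mRNAs, and FUBP1 (0.20), which binds upstream of MYC, rose, and HNRNPK (-0.16) fell, which is 3 of 12 risen beside 13.3% of all genes and 1 of 12 fallen beside 15.2%. PVT1, the noncoding neighbour of MYC, had a log2 fold change of -0.21 (adjusted p = 0.0545). Of the other E-box factors, USF1, USF2 and TFE3 were tested and 0 of 3 were called.

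Of 25 tested genes known to be activated by MYC, 15 fell at 48 h, 1 rose and 9 did not pass the test, where 15.2% of all genes fell. The median log2 fold change was -0.22, beside -0.02 over all genes. Because the list was chosen with earlier results of these data known, this excess is a description and not a test. CDC25A, the phosphatase that opens S phase, went from 14.2 ± 0.896 (SD, n = 3) to 7.87 ± 0.65 FPKM (log2 -0.78 ± 0.07; adjusted p = 0.000115). CDK4, a G1 kinase, went from 36.9 ± 1.26 to 26.4 ± 1.01 FPKM (log2 -0.47 ± 0.04; adjusted p = 0.000202). NPM1, the nucleolar chaperone, had a log2 fold change of -0.51, but it has many near-identical pseudogenes, so its value is uncertain. The one gene that rose was LDHA, lactate dehydrogenase, from 146.9 ± 4.33 to 196.9 ± 4.21 FPKM (log2 0.42 ± 0.07; adjusted p = 0.00202).

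Length moved with the 48 h comparison. The tested MYC-activated genes numbered 2 up to 2000 bases of exon, 11 to 4000, 10 to 8000 and 2 above. All tested genes numbered 3009, 3222, 4896 and 2459 in these classes. By GENCODE length, the median log2 fold change of all tested genes was -0.11 up to 2000 bases of exon, -0.06 from 2000 to 4000, 0.00 from 4000 to 8000 and 0.03 above. The 11 listed genes of 2000 to 4000 bases had a median of -0.28 and the 10 of 4000 to 8000 bases one of -0.15, both below their class. The part of length in the size of these changes was not tested beyond this. Several of the listed genes also follow the cell cycle or ribosome building at large, and the list shares no gene with the other lists named here.

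Of 7 tested genes that MYC is known to repress, 4 rose, beside 13.3% of all genes. Another 1 fell, which is near the 15.2% of all genes. This list, too, was chosen with earlier results of these data known. NDRG1, a stress and differentiation gene, went from 8.82 ± 0.576 (SD, n = 3) to 23.7 ± 2.90 FPKM (log2 1.32 ± 0.09; adjusted p = 4.66e-05). GADD45A (0.49) and the cell cycle inhibitors CDKN1A (0.47) and CDKN1B (0.25) also rose on the log2 scale. THBS1, an inhibitor of vessel growth, went the other way, from 7.36 to 4.10 FPKM (log2 -0.71 ± 0.06; adjusted p = 9.14e-05). NDRG1 and LDHA are also known hypoxia-induced genes.

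**Figure D4:**
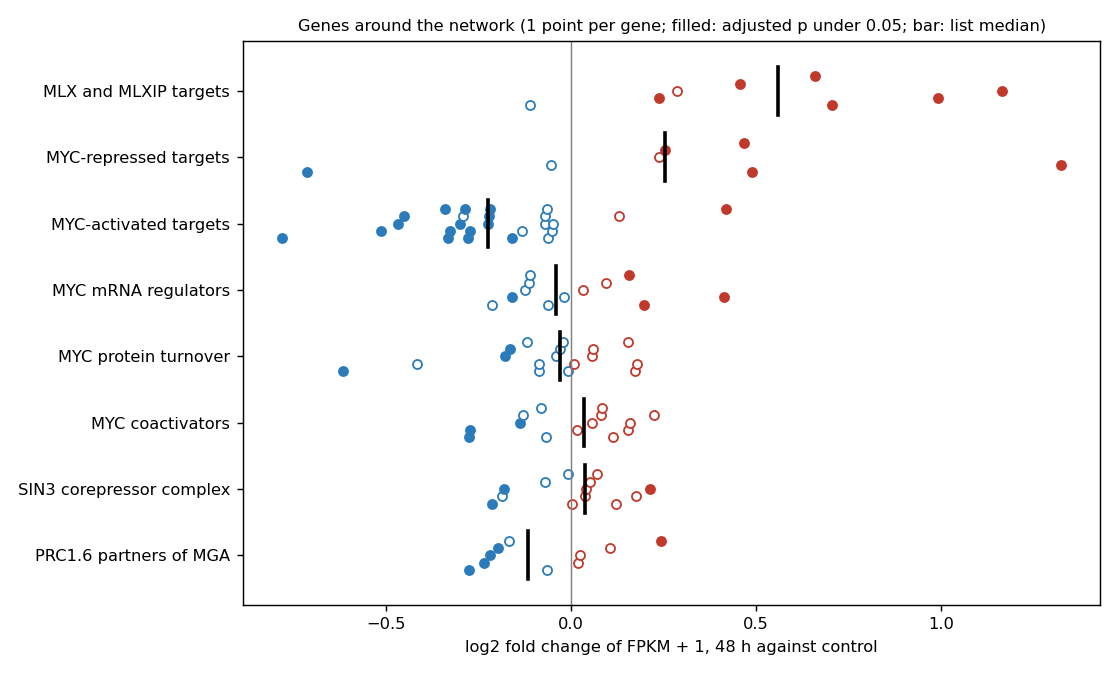
Log2 fold change of FPKM + 1 at 48 h against control (horizontal axis) for the genes of 8 lists around the network. Each point is a gene, filled where the adjusted p was under 0.05, red for higher and blue for lower, and the black bar is the median of the list. The medians are 0.56 for MLX and MLXIP targets, 0.25 for MYC-repressed targets and -0.22 for MYC-activated targets. The lists were chosen with earlier results of these data known.

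In none of these lists was a gene called at 24 h by limma. Unadjusted p-values under 0.05 at 24 h numbered 2 of 25 for MYC-activated genes, 1 of 7 for MYC-repressed genes, 2 of 8 for MLX and MLXIP targets, 0 of 14 for coactivators, 2 of 13 for SIN3 subunits, 1 of 10 for MGA partners, 3 of 17 for protein turnover, 1 of 12 for transcript regulators and 0 of 3 for other E-box factors. Over all genes they numbered 1015 of 13657, the background for these counts. In the target lists, ODC1 and NOP56 (MYC-activated) and THBS1 (MYC-repressed) were higher at 24 h, the reverse of their falls at 48 h. TXNIP and KLF10 (MLX and MLXIP targets) were higher at both times. Between 24 h and 48 h, 16 of 25 MYC-activated genes fell and 1 rose, and 4 of 7 MYC-repressed genes rose and 1 fell. Of the MLX and MLXIP targets, 7 of 8 rose. Over all genes tested, 16.0% rose and 16.3% fell between these times, and the 1 of 7 fallen is near that share. In promoter letters, CACGTG was present for 12 of 22 MYC-activated genes, 4 of 8 MLX and MLXIP targets and 0 of 6 MYC-repressed genes, beside 8.77% of all 27305 genes searched. Outside the target lists it was present for 3 of 8 coactivators, 4 of 11 protein turnover genes, 2 of 7 transcript regulators, 1 of 12 SIN3 subunits, 1 of 10 MGA partners and 0 of 8 other E-box factors.

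The genes most like MYC and MXD4 over the 9 libraries were sought among protein-coding genes averaging 5 FPKM or more. For MYC, over 6575 genes, they were GFUS (Pearson r = 0.93), BORA (0.93), ALG6 (0.93), RWDD1 (0.92) and MICOS13 (0.92), each with its lowest group mean at 48 h. For MXD4, over 6576 genes, they were GRB10, PDGFRA, TIE1, EPB41L1 and KIAA0040, all with r of 0.99 and with group means nearly level from control to 24 h and higher at 48 h (PDGFRA 12.7, 12.3 and 16.1 FPKM). All points share the same libraries and 3 groups, so such values describe a common pattern over the groups and carry no test.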

How the data were processed

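The authors deposited FPKM for 36810 genes in 9 libraries, replicates apart. The submitters' processing notes list HISAT2, featureCounts, Subread, DESeq2 and hg38, without versions; the annotation release is not given. Names came from the gene table supplied (36805 genes) and positions from GENCODE 29 (35585 genes). Fragment numbers were recovered from the FPKM (whole to within 0.001 of a fragment with the GENCODE length for 20925 genes, otherwise, as for all members but MXD1 and MXD3, with the smallest length giving whole numbers). Genes with at least 1 FPKM in 3 of 9 libraries (13657) were tested on log2(FPKM + 1) with limma 3.58.1 in R 4.3.3: 1 mean per group, 6 residual degrees of freedom, two-sided, Benjamini-Hochberg over all genes, tested on simulated data. The members and lists were chosen with earlier results of these data known. Named were all members, up to 3 called genes per list with the largest change, and fixed references (TXNIP, ARRDC4, MYCN, MYCL, MLXIPL); other names were chosen after their values were seen. Promoters came from RefSeq; those of chromosome 8, MYC included, were not used here. No libraries were duplicates.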

Additional observations from a re-analysis of the deposited data

Results flagged for a closer look

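For 4 of the 10 genes the change from control differed between 24 h and 48 h. It was tested as the difference between the 48 h and 24 h libraries (limma, adjusted p under 0.05). All 4 rose, and in the same comparison 16.0% of all genes tested rose and 16.3% fell. The log2 difference was 0.58 for MXD4, 0.33 for MLX, 0.20 for MXD1 and 0.17 for MXI1. The call of MXD1 was lost in 8 of 19 alternatives and that of MXI1 in 5 of 19. Groups of 3 libraries are too small for a check for single distant values.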

How the results depend on the processing

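Of 558 values of single genes under alternatives (pseudocount, filter, scaling, trend, weights, block, fewer groups, each library left out), 530 kept their side of the threshold and none of the called values changed sign. The 28 that did not belong to MYC, MXI1, MXD1 and MAX; the cause was not tested. MAX between 24 h and 48 h was called with array weights alone (adjusted p = 0.0483). Leaving out 1 library gave 3 to 5 called members at 48 h against control, 2 to 4 at 48 h against 24 h and 0 at 24 h. Over all genes it gave 2584 to 5132 (3891 with all libraries; fewest without 48 h replicate 2), 2985 to 4594 (4415) and 0 to 2 (1), and the ratio of antagonists to MYC at 48 h was 6.07 to 6.46. Genes called at 24 h numbered 3 with no filter, 4 with quantile normalization, 0 with no trend, 46 with array weights and 0 with only the 2 groups compared. Whether the replicate numbers pair the libraries could not be settled. In deviations from the group means, same-numbered pairs correlated at -0.0571 to 0.239, not every one above 0.1, and other pairs at -0.192 to 0.128. With the replicate number as a block, 5, 0 and 4 members and 3733, 0 and 4344 genes were called (48 h against control, 24 h against control, 48 h against 24 h). A filter at 5 FPKM left out MXD3, MXD4, MNT and MLXIP. The median of all genes at 48 h shifted by under 0.1 between scalings. At 144 to 226 fragments, MXD3 has the least depth.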
